A study of Bos taurus with 15 samples.

Results

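RNA-seq of transfected bovine fetal fibroblasts (BFFs) held 47 genes that were higher with each of 3 expression constructs than with the control plasmid. They were chosen by a rule on group means in CPM (a gene's expected count scaled by the sum over all genes of that sample): a control mean of at least 5 CPM, and means at least 1.5 times the control mean with wild-type (WT) ARGFX, with mutant ARGFX and with LEUTX. Of 21665 genes in the table, 10258 had a control mean of at least 5 CPM and 49 of these met all 3 fold thresholds. The rule then left out PLCD1 and PLD2, which met them, and PXDN and SMTN, which with mutant ARGFX reached 1.48-fold and 1.45-fold. Since the means of all 4 groups chose the members, every difference from control below is a description and carries no test.

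Controls and WT ARGFX had 4 samples each, LEUTX had 4 and mutant ARGFX had 3. The authors had set aside a further mutant ARGFX sample because it grouped with WT ARGFX, and it was not analysed here. All came from primary dermal fibroblasts grown from the skin of 1 fetus at 6 months of gestation and were used at passage 4. Cells were electroporated with a plasmid that carries a CMV promoter and puromycin resistance, selected with puromycin at 4 µg/ml, given fresh medium at 24 h and lysed for RNA at 72 h. WT ARGFX and LEUTX plasmids carried the bovine homeobox coding sequences, each joined by a linker to a C-terminal FLAG tag. Mutant ARGFX carried an allele with a short frameshifting deletion ahead of the homeodomain, in the same tagged vector. The control was the empty vector, so expression of any tagged insert and the action of a particular protein cannot be told apart in a gene raised by all 3. All samples share 1 donor, so p-values measure the spread between transfections and not between animals.

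ARGFX and LEUTX belong to the ETCHbox genes, homeobox genes of placental mammals that are active in the preimplantation embryo and silent in fibroblasts. A homeodomain is a DNA-binding domain, and a frameshift ahead of it removes it from the protein. Dermal fibroblasts make the collagen and fibronectin matrix of the skin, and when activated they assemble smooth muscle actin and nonmuscle myosin into contractile fibres. The named members are described below by role, as contractile and cytoskeletal genes, matrix and cell surface genes, metabolic enzymes, signalling and regulatory genes, and membrane and traffic genes. This grouping was made after the members were known and was not tested. Symbols were known for 37 of the 47 members, and came from the supplementary list of genes raised by WT ARGFX in these same samples. Fibroblast identity could be checked on 6 of 12 markers (COL1A1, COL1A2, COL3A1, FN1, FBN1 and POSTN), whose control means lay between 454 and 12428 CPM, while none of 24 markers of other skin cell types had a symbol, and these were not analysed here.

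The levels of ARGFX and LEUTX matched the labels. The ARGFX count covers both alleles, so it does not check the labels of WT against mutant ARGFX. The authors aligned and viewed the reads of these samples to check that each expressed the right version, which was not repeated here. ARGFX lay between 2866 and 4477 CPM in WT ARGFX and between 3631 and 6514 CPM in mutant ARGFX, against at most 0.0385 CPM in controls, and LEUTX lay between 1294 and 1729 CPM in LEUTX samples. Total expected counts were 25947911 to 28163565 in controls and 26917853 to 41554242 with a construct. The number of genes with a count was 15394 to 15955 in controls, 15590 to 16077 with WT ARGFX, 15740 to 16229 with mutant ARGFX and 15924 to 16211 with LEUTX. One WT ARGFX library stood apart. Of the 4 WT ARGFX samples, 2 shared a column header and carry no replicate number (libraries a and b here), and library b was the lowest WT ARGFX library for 33 of the 47 members, or 70.2%, against 51.8% of all genes with a mean over 5 CPM. Its median fold over the control mean was 1.41 over the members, with a range from 0.596 to 3.84, and 7 members lay below the control mean in it. In each of the other groups 1 library was likewise lowest for most members, namely control 2 (29 members, 61.7% against 37.5% of all genes), mutant ARGFX 2 (32 members, 68.1% against 47.5%) and LEUTX 4 (27 members, 57.4% against 32.1%). In all 4 groups that library also had the fewest genes with a count. Whether RNA quality or depth had a part in the members' levels was not tested.

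Folds were smallest with the mutant for most members. In CPM, the fold over control had a median of 1.82 with WT ARGFX (range 1.52 to 3.13), 1.63 with mutant ARGFX (1.5 to 2.09) and 2.04 with LEUTX (1.52 to 6.73). LEUTX gave the largest of the 3 folds for 31 members and WT ARGFX for the other 16, and the mutant gave the smallest for 40. A fold of at least 2 was reached by 25 members with LEUTX, 13 with WT ARGFX and only 2, LFNG and LMOD1, with the mutant. The order LEUTX, WT ARGFX, mutant ARGFX from high to low held for 28 members. In plain CPM the median log2 fold of all genes with LEUTX was −0.12, against −0.02 under TMM scaling, which corrects for library composition, so LEUTX folds in CPM read lower than those of the fit.

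Fitted with edgeR, 45 members passed the call rule as higher with WT ARGFX (adjusted p under 0.05, fold over 1.5 and mean CPM over 5), where 5.58% of all genes did. With mutant ARGFX 35 passed, against 1.16% of all genes, and with LEUTX 46, against 11.1%. None passed as lower, where 5.93%, 2.43% and 12.3% of all genes did. These contrasts chose the members, so nothing is read from the counts. The 12 that were not called with the mutant were MAP1B, FN1, MYH9, TMEM158, MYO9B, PLEKHG2, NEK1 and 5 genes without a symbol. Every WT ARGFX sample lay above every control sample for 26 members (10.8% of all genes), every mutant sample for 37 (10.9%) and every LEUTX sample for 39 (17.3%). All construct samples lay above all controls for 25 members (3.43% of all genes). Of the 22 that overlapped the controls, library b of WT ARGFX was in the control range for 21, a mutant ARGFX library for 10 and a LEUTX library for 8. Without library b, WT ARGFX lay above every control for all 47 members (20.3% of all genes), and every construct for 35 (4.56%).

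**Figure D1:**
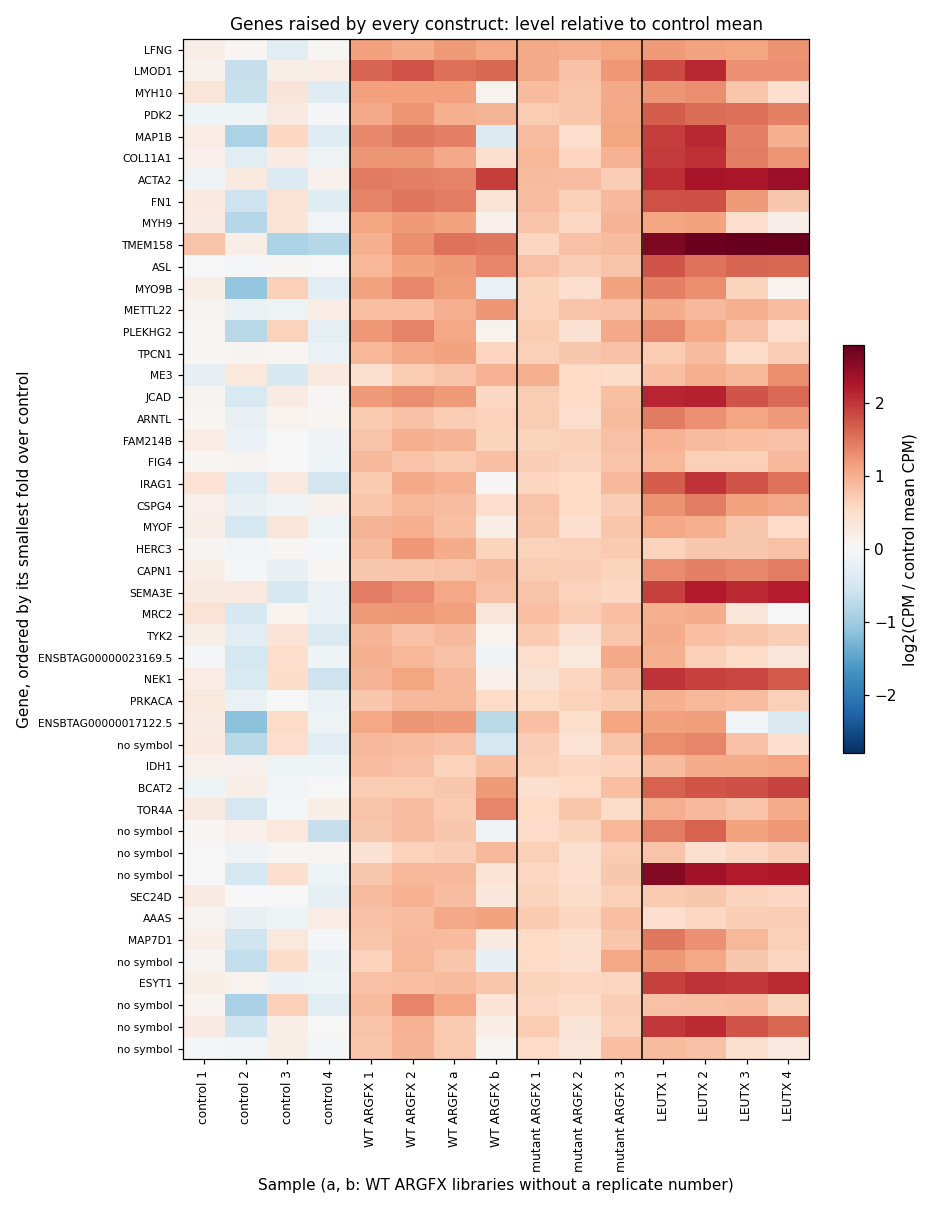
Level of each of the 47 members (rows, ordered by the smallest of the 3 folds over control) in each of the 15 samples (columns), as log2 of CPM over the control mean CPM on a colour scale from blue (lower) to red (higher); rows marked "no symbol" are genes without one. WT ARGFX library b is paler than the other WT ARGFX libraries in most rows and below the control mean in 7, and LEUTX columns are darkest for TMEM158, a gene without a symbol and ACTA2.

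**Figure D2:**
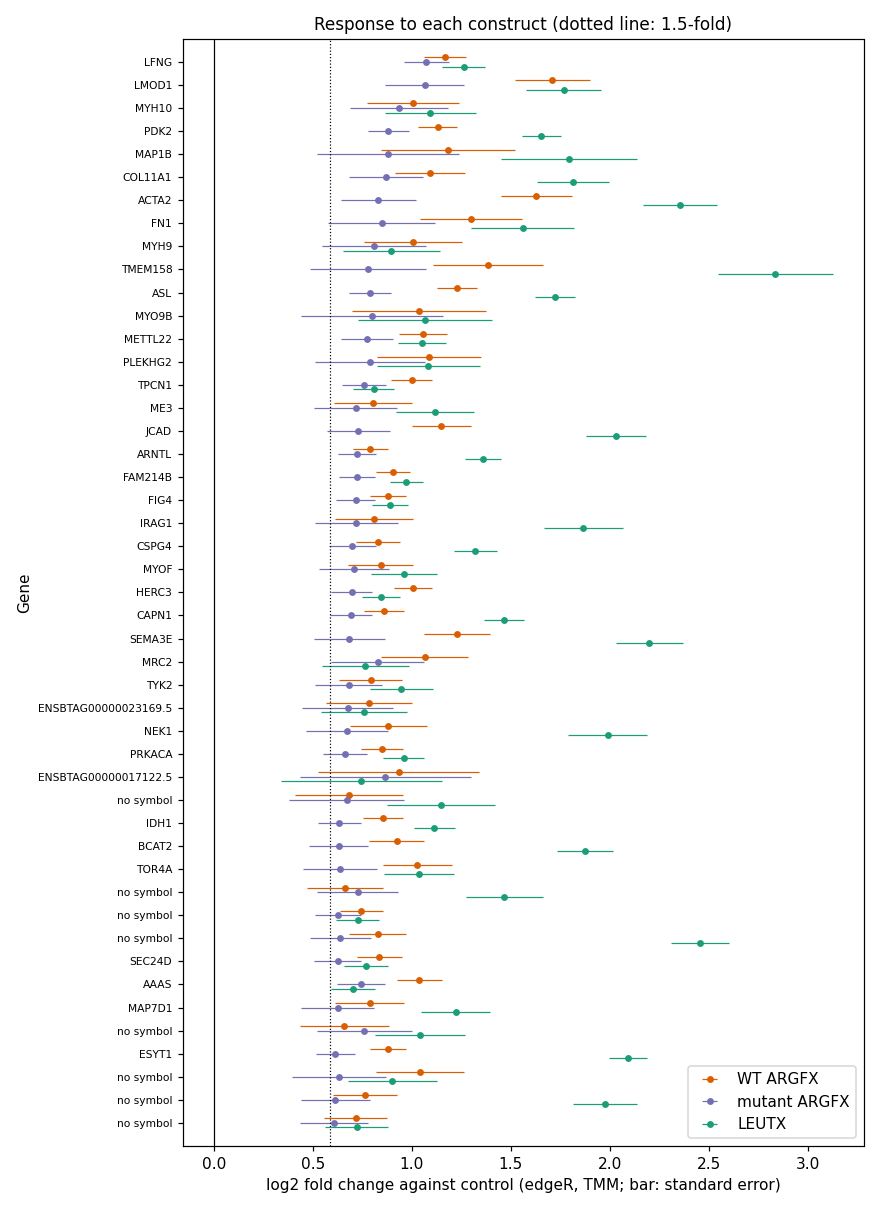
Fitted log2 fold change against control for every member with WT ARGFX (orange), mutant ARGFX (purple) and LEUTX (green), with horizontal bars for 1 standard error and a dotted line at 1.5-fold. Mutant points sit closest to the dotted line for most genes, and LEUTX points reach 2.84 for TMEM158.

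Contractile and myosin genes formed the first group of members. ACTA2 (ENSBTAG00000014614.5) encodes smooth muscle alpha-actin, the actin of activated fibroblasts. It was at 656, 845, 533 and 762 CPM in controls 1 to 4, and at 1298, 1271 and 1131 CPM in mutant ARGFX 1 to 3. With WT ARGFX it was at 1911 and 1871 CPM in replicates 1 and 2, at 1836 CPM in library a and at 2683 CPM in library b. LEUTX samples held 2934, 3450, 3415 and 3688 CPM. The 4 groups did not overlap and were ordered control, mutant ARGFX, WT ARGFX, LEUTX. The folds over control were 1.77 with the mutant, 2.97 with WT ARGFX and 4.83 with LEUTX. Library b, low for most members, was the highest WT ARGFX library for ACTA2.

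LMOD1 encodes leiomodin, an actin filament nucleator of smooth muscle. It was at 9.44, 5.57, 9.78 and 10.1 CPM in controls 1 to 4 and at 18.2, 15.4 and 20.3 CPM in mutant ARGFX. With WT ARGFX it was at 27.1, 29.7, 25.6 (library a) and 26.7 CPM (library b), and with LEUTX at 30.7, 37.6, 21.1 and 21.1 CPM. Every construct sample exceeded every control, and both the WT ARGFX and the LEUTX samples exceeded every mutant sample, while WT ARGFX and LEUTX overlapped. The fold was 3.13 with WT ARGFX, the largest of any member with that construct, 2.06 with the mutant and 3.17 with LEUTX.

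MYH10 and MYH9 encode heavy chains of nonmuscle myosin II, the motor that pulls on actin fibres. MYH10 was at 283, 146, 286 and 176 CPM in controls, at 494, 494, 491 and, in library b, 240 CPM with WT ARGFX, at 410, 379 and 465 CPM with the mutant, and at 527, 548, 383 and 307 CPM with LEUTX. All construct libraries other than b lay above the controls. MYH9 was at 892, 438, 995 and 724 CPM in controls, at 1628, 1731, 1674 and 840 CPM (library b) with WT ARGFX, at 1320, 1131 and 1479 CPM with the mutant, and at 1640, 1677, 1077 and 867 CPM with LEUTX. Library b and LEUTX 4 fell within the control range for MYH9. The means of MYH10 were nearly level over the constructs, at 430 ± 126 CPM (SD, n = 4) with WT ARGFX, 418 ± 43.7 CPM (n = 3) with the mutant and 441 ± 116 CPM (n = 4) with LEUTX. Reads that match both myosin genes, or several actins or collagens, could be split between them by the authors' counting, and these values are uncertain to that extent.

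MYO9B encodes an unconventional myosin. Its controls spread from 28.8 to 96.3 CPM, library b held 53.8 CPM against 133 to 155 CPM in the other WT ARGFX libraries, and LEUTX ran from 65.7 to 161 CPM. Libraries of all 3 constructs lay within its control range. IRAG1 encodes a protein that links cGMP signalling to calcium release in smooth muscle. Controls held 7.67 to 14.4 CPM, WT ARGFX 11.1 (library b) to 22.9 CPM, mutant ARGFX 16 to 20.3 CPM and LEUTX 31.1 to 44.2 CPM. LEUTX samples lay above all ARGFX samples. The microtubule genes MAP1B and MAP7D1 had folds of 2.18 and 1.65 with WT ARGFX, 1.80 and 1.52 with the mutant and 3.20 and 2.17 with LEUTX. MAP1B was lower in library b, at 61.4 CPM, than in 3 of the 4 controls, of which the highest held 121 CPM.

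**Figure D3:**
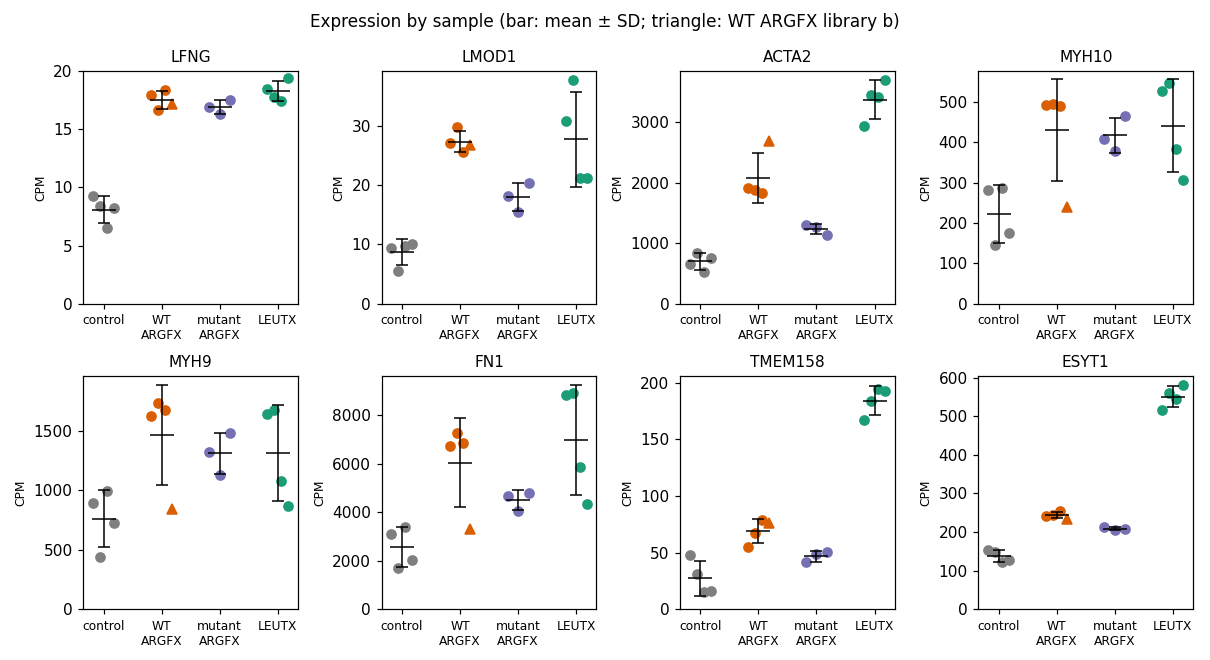
CPM in every sample for 8 members, with a linear axis from 0 and the mean ± SD of each group in black; grey is control, orange WT ARGFX, purple mutant ARGFX and green LEUTX, and the triangle is WT ARGFX library b. LFNG sits at 16.3 to 19.4 CPM with every construct, ACTA2 steps up from control to mutant ARGFX, WT ARGFX and LEUTX, and the triangle lies in the control range for MYH10, MYH9 and FN1.

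Matrix and cell surface genes formed the second group. FN1 encodes fibronectin, the adhesive glycoprotein of the matrix, and had the highest control mean of the members at 2557 CPM. It was at 3096, 1705, 3407 and 2018 CPM in controls, at 6720, 7268, 6878 and 3308 CPM (library b) with WT ARGFX, at 4656, 4039 and 4817 CPM with the mutant, and at 8827, 8921, 5875 and 4341 CPM with LEUTX. All construct libraries but b were above the highest control. COL11A1 encodes a chain of type XI collagen, a minor collagen of fibrils. It was at 136, 100, 143 and 110 CPM in controls, at 287, 289, 256 and 169 CPM (library b) with WT ARGFX, at 234, 185 and 241 CPM with the mutant, and at 475, 506, 332 and 290 CPM with LEUTX. No construct sample overlapped the controls, and LEUTX lay above both ARGFX groups, by a narrow margin in LEUTX 4.

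CSPG4, a membrane proteoglycan, had 143 to 182 CPM in controls, 231 to 313 CPM with WT ARGFX, 241 to 286 CPM with the mutant and 341 to 447 CPM with LEUTX. WT and mutant ARGFX overlapped, and LEUTX lay above both. MRC2 encodes a receptor that takes up collagen for breakdown. Its WT ARGFX libraries held 353 to 367 CPM apart from b, at 200 CPM, and its LEUTX libraries held 318, 330, 201 and 161 CPM, the last 2 within the control range of 117 to 210 CPM. MRC2 was 1 of only 4 members whose smallest fold was with LEUTX, at 1.58. JCAD encodes a protein of cell junctions, and was at 41.5 to 65.5 CPM in controls, 82.7 to 136 CPM with WT ARGFX, 82.3 to 99.5 CPM with the mutant and 168 to 248 CPM with LEUTX. SEMA3E, a secreted semaphorin that signals through a plexin receptor, ran from 6.42 to 10.6 CPM in controls, 13.1 to 15.3 CPM with the mutant, 15.6 to 23.8 CPM with WT ARGFX and 33.1 to 41.2 CPM with LEUTX. Its 4 groups did not overlap.

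Metabolic enzymes formed the third group. ASL encodes argininosuccinate lyase, which makes arginine. It was at 8.08, 7.81, 8.31 and 8.21 CPM in controls, at 14.2, 13.1 and 14.1 CPM with the mutant, at 15.5, 17.8, 18.6 and 20.8 CPM (library b) with WT ARGFX, and at 27.3, 23.2, 25.1 and 24.8 CPM with LEUTX. As for ACTA2 and SEMA3E, the groups were separate in the order control, mutant ARGFX, WT ARGFX, LEUTX. BCAT2, the mitochondrial aminotransferase of branched-chain amino acids, held 8.41 to 10.2 CPM in controls, 12.3 to 16.2 CPM with the mutant, 14.9 to 20.8 CPM with WT ARGFX and 28.5 to 34.0 CPM with LEUTX. PDK2 encodes a kinase that switches off pyruvate dehydrogenase. Its levels were 6.97 to 9.07 CPM in controls, 12.4 to 16.1 CPM with the mutant, 14.8 to 18.1 CPM with WT ARGFX and 20.1 to 24.6 CPM with LEUTX. The mutant and WT ARGFX overlapped for BCAT2 and PDK2. The dehydrogenase gene IDH1, outside the rule for named genes, had folds of 1.74, 1.54 and 2.03 with WT ARGFX, mutant ARGFX and LEUTX, and the mitochondrial malic enzyme gene ME3 had 1.68, 1.63 and 2.04. All construct samples lay above all controls for these 5 enzymes.

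Signalling and regulatory genes made up the fourth group. LFNG encodes a glycosyltransferase that modifies Notch receptors, and was the member whose smallest fold over the 3 constructs was largest. It was at 9.22, 8.38, 6.53 and 8.25 CPM in controls, at 17.9, 16.6, 18.4 and 17.2 CPM (library b) with WT ARGFX, at 16.9, 16.3 and 17.5 CPM with the mutant, and at 18.5, 17.8, 17.4 and 19.4 CPM with LEUTX. Construct samples of all kinds overlapped each other and none overlapped the controls. The folds were 2.16, 2.09 and 2.25, and library b did not stand apart for this gene.

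TMEM158 encodes a membrane protein known for its induction by Ras. Controls held 47.7, 31.4, 14.7 and 15.8 CPM, WT ARGFX held 54.7, 67.3, 78.5 and 75.9 CPM (library b), the mutant 41.4, 48.3 and 50.7 CPM, and LEUTX 167, 184, 194 and 193 CPM. The LEUTX samples were far above the rest, and the lowest mutant sample lay below the highest control. The LEUTX fold of 6.73 was the largest of any member. ARNTL encodes a core activator of the circadian clock, and was at 12.7 to 15.7 CPM in controls, 23.1 to 26.2 CPM with WT ARGFX, 20.9 to 27.2 CPM with the mutant and 32.0 to 40.4 CPM with LEUTX. CAPN1 encodes a calcium-activated protease, with 138 to 181 CPM in controls, 246 to 261 CPM with the mutant, 270 to 295 CPM with WT ARGFX and 401 to 430 CPM with LEUTX. NEK1 encodes a kinase of cilia and DNA repair, and its ARGFX samples, from 12.5 to 24.4 CPM, overlapped the controls at 7.59 to 16.3 CPM while LEUTX did not, at 37.2 to 46.5 CPM.

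PRKACA, the catalytic subunit of protein kinase A, TYK2, a kinase of cytokine receptors, and PLEKHG2 had folds between 1.56 and 2.03 with every construct. HERC3, a ubiquitin ligase, METTL22, a protein methyltransferase, and FAM214B had folds between 1.60 and 1.99. For PRKACA, HERC3, METTL22 and FAM214B every construct sample exceeded every control. TYK2 in library b, at 22.4 CPM, was below the control 3 level of 27.0 CPM, and PLEKHG2 ran from 8.63 to 23.0 CPM in controls and from 15.7 (library b) to 38.5 CPM with a construct.

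Membrane and traffic genes completed the named members. ESYT1 encodes a tether between the endoplasmic reticulum and the plasma membrane. It was at 153, 147, 122 and 127 CPM in controls, at 213, 204 and 208 CPM with the mutant, at 241, 245, 254 and 234 CPM (library b) with WT ARGFX, and at 517, 560, 545 and 582 CPM with LEUTX. The 4 groups were separate, and the spread within each was small beside the gap to LEUTX. FIG4, a phosphoinositide phosphatase of endosomes, was at 11.3 to 12.7 CPM in controls and 18.6 to 23.0 CPM with a construct, with folds of 1.77, 1.63 and 1.74 for WT ARGFX, mutant ARGFX and LEUTX. TPCN1, an ion channel of endosomes and lysosomes, was at 8.63 to 10.4 CPM in controls and 14.4 to 21.6 CPM with a construct. MYOF, a membrane repair protein, held 127 to 226 CPM in controls and 204 (library b) to 381 CPM with a construct. SEC24D, a coat protein of secretory vesicles, AAAS, a nuclear pore protein, and TOR4A, a torsin ATPase, are named outside the rule, and had folds between 1.52 and 1.97.

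The 10 members without a symbol had control means from 5.13 to 308 CPM and smallest folds from 1.5 to 1.57. ENSBTAG00000023169.5 was at 8.44, 6.21, 12.2 and 8.0 CPM in controls and at 8.17 (library b) to 18.2 CPM with a construct. ENSBTAG00000017122.5 was at 364, 139, 449 and 281 CPM in controls, at 649, 731, 701 and 184 CPM (library b) with WT ARGFX, at 555, 431 and 663 CPM with the mutant and at 687, 695, 291 and 232 CPM with LEUTX. Its construct samples overlapped the controls in all 3 groups, and it was the 1 member that edgeR called higher with none of the 3 constructs.

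Members were more variable than other genes within groups, in the same values whose means chose them, so this is a description. The median coefficient of variation of the members in CPM was 22.8% in controls, where all genes had 11.9%, 19.1% against 12.3% with WT ARGFX, 10.3% against 6.83% with the mutant and 10.7% against 8.70% with LEUTX. Without library b, the value with WT ARGFX was 6.21% against 5.07%. In the RefSeq annotation 36 of the 37 symbols were found, and no pair of these 36 members was adjacent. The closest pair, ARNTL and IRAG1, was 27 annotated genes apart. The other members could not be placed.

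The mutant allele shifts the reading frame and ends the protein early, so that it lacks the homeodomain and all that follows, and the comparison asks whether the members' levels differ between the intact and the truncated protein. It rests on the mutant samples that were kept after the one that grouped with WT ARGFX was set aside. This contrast did not choose the members, but the same libraries entered the rule. The rule held every construct mean to at least 1.5 times control, and so bears on every difference between constructs, in either direction. The counts of members called higher or lower, here and below, are therefore a description. Nothing is read from their excess or lack beside the shares of all genes. ACTA2 was the 1 member called higher with WT ARGFX (2.13% of the members, against 0.342% of all genes), by 0.80 on the log2 scale (SE 0.19, adjusted p = 0.0411, edgeR quasi-likelihood test with Benjamini-Hochberg adjustment over all genes). Without library b the ACTA2 difference was 0.60 (SE 0.16) with an edgeR adjusted p of 0.0675, and no member was called. Over all alternatives its adjusted p lay between 0.00202 and 0.243, and the call was lost in 12 of 21. ASL was higher by 0.44 (SE 0.11, edgeR adjusted p = 0.0411), under the fold threshold. edgeR called no member lower with WT ARGFX, where it called 1.40% of all genes. DESeq2 called none either. At an unadjusted p under 0.05, 0 members were lower and 12 were higher, where 6.38% and 5.78% of all genes were.

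No other member passed the adjusted test between WT and mutant ARGFX, and the intervals show how large a difference the data allow. For LFNG the log2 difference was 0.09, with a 95% interval from −0.13 to 0.31, for MYH10 it was 0.07 (−0.41 to 0.56), for MYH9 0.20 (−0.32 to 0.71), for FN1 0.45 (−0.09 to 0.99) and for FIG4 0.16 (−0.03 to 0.35). Of these 5 genes, the intervals were widest for MYH10, MYH9 and FN1, in which library b stood apart. The difference was positive for 45 of 47 members, against 53.4% of all genes, with a median of 0.21, where the median of all genes was 0.01. The rule used the means of both groups, so these values too are a description. The fold with WT ARGFX rose from a median of 1.82 to 1.89 once library b was left out.

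LEUTX and WT ARGFX are distinct homeobox genes, and this comparison asks how far the members respond alike. LEUTX was higher for 13 members, or 27.7%, where edgeR called 8.17% of all genes. The rule used the means of both groups, so this excess is a description. The 13 were COL11A1, ACTA2, TMEM158, JCAD, IRAG1, CAPN1, SEMA3E, NEK1, BCAT2, ESYT1 and 3 genes without a symbol. The log2 difference was 1.45 for TMEM158 (SE 0.27, edgeR adjusted p = 0.000447), 1.21 for ESYT1 (SE 0.09, edgeR adjusted p = 2.68e-08), 1.11 for NEK1 (SE 0.19, edgeR adjusted p = 0.000186) and 1.06 for IRAG1 (SE 0.19, edgeR adjusted p = 0.000301). For SEMA3E it was 0.97, for BCAT2 0.95, for JCAD 0.88, for ACTA2 0.73, for COL11A1 0.72 and for CAPN1 0.61, with edgeR adjusted p-values of at most 0.00368. ARNTL (0.57), PDK2 (0.52), ASL (0.50), CSPG4 (0.49) and IDH1 (0.26) passed the edgeR threshold on adjusted p but not on fold.

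No member was called lower with LEUTX than with WT ARGFX by edgeR or DESeq2, where edgeR called 10.6% of all genes. The rule's floor under the LEUTX mean limited such calls, so nothing is read from these counts. At an unadjusted p under 0.05, 1 member was lower, where 27.1% of all genes were. It was AAAS, named after its value was seen, which was lower in LEUTX by a log2 difference of −0.34 (SE 0.11, edgeR adjusted p = 0.0229). The median difference was 0.26 over the members and −0.03 over all genes. Without library b of WT ARGFX, LEUTX was higher for 15 members (9.44% of all genes), including the same 13. MYH10, with 0.09 and an interval from −0.36 to 0.54 (−0.07 without library b), MYH9, with −0.11 (−0.59 to 0.37), and LFNG, with 0.09 (−0.11 to 0.30), did not differ beyond their spread.

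Between LEUTX and mutant ARGFX, 19 members were higher with LEUTX, or 40.4%, where edgeR called 8.95% of all genes. They were the 13 above with LMOD1, PDK2, ASL, ARNTL, CSPG4 and MAP7D1. TMEM158 differed by 2.06 on the log2 scale (SE 0.31, edgeR adjusted p = 5.77e-05), ACTA2 by 1.53 (SE 0.20, edgeR adjusted p = 1.27e-05), SEMA3E by 1.51 (SE 0.18, edgeR adjusted p = 4.30e-06) and ESYT1 by 1.48 (SE 0.10, edgeR adjusted p = 7.48e-09). ASL differed by 0.94, PDK2 by 0.77, LMOD1 by 0.70, ARNTL by 0.64, CSPG4 by 0.62 and MAP7D1 by 0.60. MAP7D1 (edgeR adjusted p = 0.0200) was the least secure, since its call was lost in 4 of 21 alternatives, over which its adjusted p ran from 0.00422 to 0.0697. MAP1B (0.92, SE 0.37, edgeR adjusted p = 0.0605) and FN1 (0.71, SE 0.28, edgeR adjusted p = 0.0535) had differences as large as called members but did not pass. IDH1 (0.48), PRKACA (0.30) and FAM214B (0.25) passed the edgeR test on adjusted p but not on fold. No member was lower by edgeR, which called 10.9% of all genes lower, or by DESeq2. At an unadjusted p under 0.05, 0 were lower, where 26.1% of all genes were. As above, the rule bears on the counts called higher and lower, and they are a description. The median difference was 0.40 over the members and −0.03 over all genes.

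**Figure D4:**
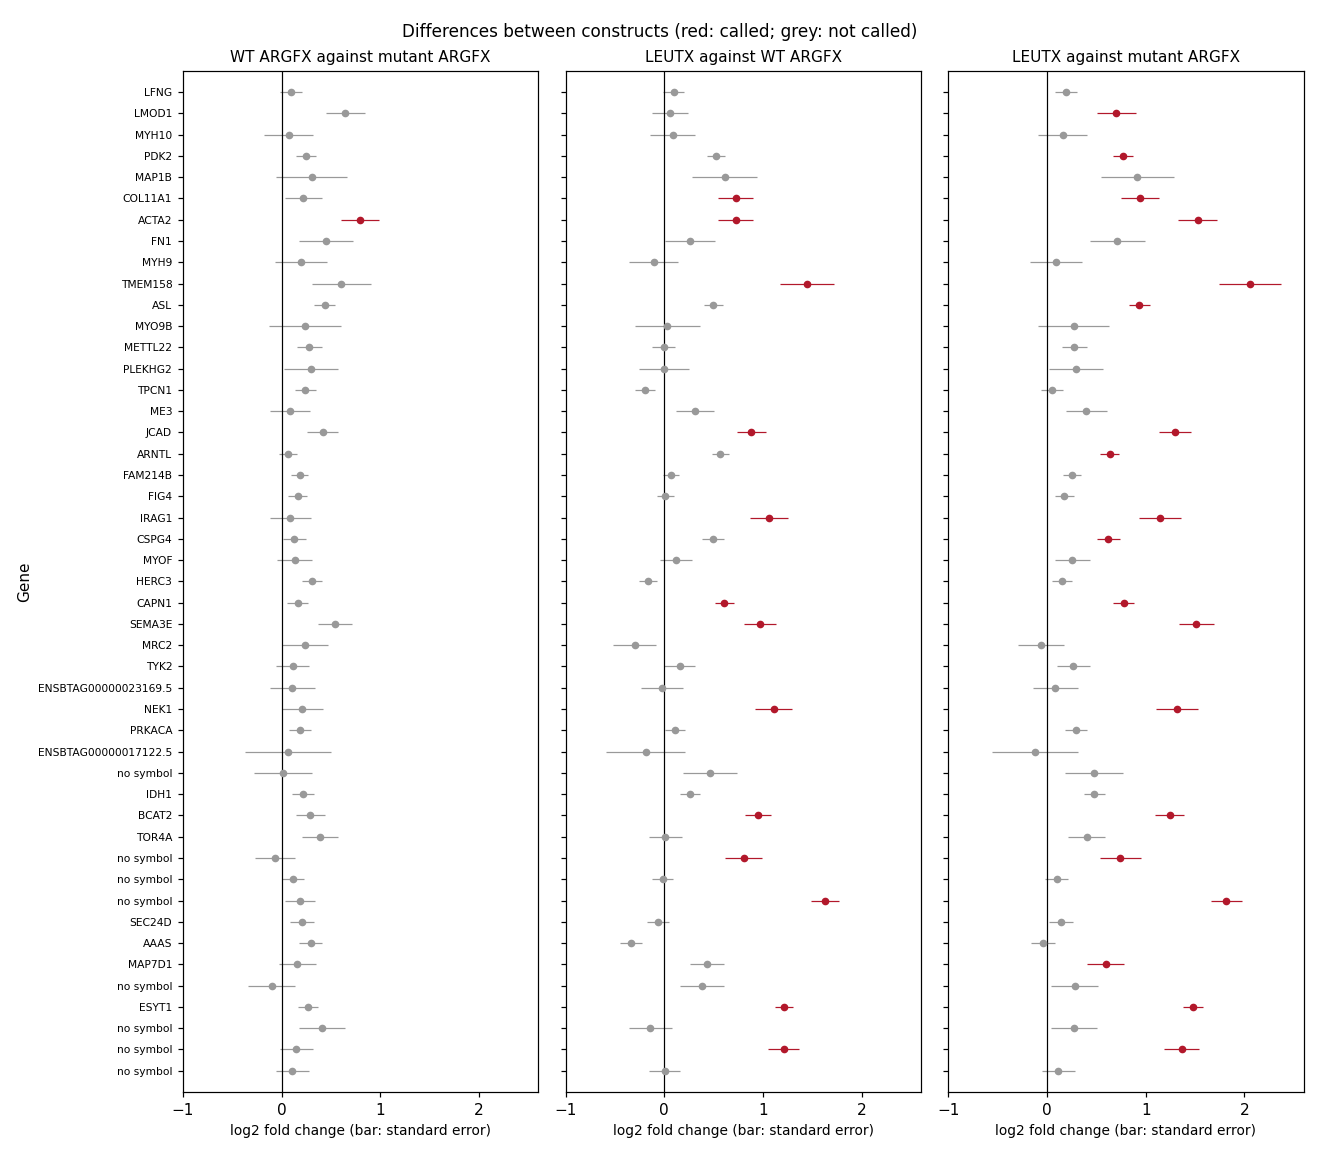
Fitted log2 difference between constructs for every member, with bars for 1 standard error: WT against mutant ARGFX (left), LEUTX against WT ARGFX (middle) and LEUTX against mutant ARGFX (right), red where called and grey where not. ACTA2 is the only red point on the left, 13 members are red in the middle and 19 on the right, and none is red to the left of 0.

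Other genes of the members' pathways were taken from lists, of which only genes in the supplementary list of genes raised by WT ARGFX had a symbol. Their counts with WT ARGFX, and any difference between WT ARGFX and another construct, are therefore not independent evidence of direction. Members in the lists, and PLCD1 and PLD2, met the rule with every construct. Their part in the counts with mutant ARGFX and LEUTX is not independent either. The contractile and actin list had 13 measured genes of 25, 4 of them members (ACTA2, LMOD1, MYH9 and MYH10). All 13 were called higher with WT ARGFX (5.58% of all genes), 5 with the mutant (1.16%) and 12 with LEUTX (11.1%), with none lower. The members ACTA2, LMOD1 and MYH10 were among the 5. Between constructs, 5 of these 13 were higher with LEUTX than with WT ARGFX (8.17% of all genes) and 7 than with the mutant (8.95%). These shares of all genes hold for the lists below as well. For the counts called lower there, 12.3% of all genes were lower with LEUTX than in controls. Against WT ARGFX, 10.6% of all genes were lower with LEUTX. The largest differences in the list were not in members: ACTG2, the smooth muscle gamma-actin, was higher with LEUTX than with WT ARGFX by 1.90 on the log2 scale, and SYNC, an intermediate filament protein, by 1.71.

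Of the 23 genes of the matrix list, all measured, 4 were members (FN1, COL11A1, MRC2 and CSPG4), and 23, 9 and 9 were called higher with WT ARGFX, mutant ARGFX and LEUTX. With LEUTX, 4 were called lower than in controls. Relative to WT ARGFX, 3 genes of the list were higher with LEUTX and 10 were lower, and the list's median difference was −0.49. The choice of the list's genes by their level with WT ARGFX enters these values. Of the members in the list, COL11A1 was higher with LEUTX by 0.72 and CSPG4 by 0.49, FN1 differed by 0.26 and MRC2 by −0.30.

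Of the amino acid list, 8 of 21 genes were measured and 7 could be called, among them the members BCAT2 and ASL. The counts called higher were 7, 3 and 5 with WT ARGFX, mutant ARGFX and LEUTX, with BCAT2 and ASL in each. Of the phosphoinositide list, 5 of 9 were measured and 4 could be called, with FIG4 as the member, and 4, 4 and 3 were higher. FIG4, PLCD1 and PLD2, which all met the fold thresholds, were in each of these counts, so the counts partly restate the rule. The cell division list held no member. Its 11 genes that could be called, of 14 measured, were called higher in 11, 0 and 1 cases and lower with LEUTX in 3. The metalloproteinase list held none either, with 5 genes called higher with WT ARGFX, 2 with the mutant, and 3 higher and 1 lower with LEUTX. The single measured NRF2 target, NQO1, was called higher with WT ARGFX and LEUTX but not with the mutant. The 6 fibroblast markers were called higher in 6, 2 and 1 cases and lower with LEUTX in 2.

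Membership depended on the thresholds. Just inside the fold threshold lay smallest folds of 1.504, 1.505 and 1.514, and just outside it 1.499, 1.497 and 1.496, all in genes without a symbol. Just inside the control minimum lay ME3 at 5.71 CPM and 2 genes without a symbol at 5.26 and 5.13 CPM, and just outside it SERTAD4 at 4.47 CPM, PDCD2L at 4.11 CPM and a gene without a symbol at 4.61 CPM. Leaving out 1 sample at a time, 19 members met the rule every time, and these also met it under TMM and DESeq2 scaling. The number of genes that met the rule was 119 without control 3 and 72 without control 1, against 37 without control 2 and 37 without control 4, so controls 3 and 1 moved the count more than any construct library, of which mutant ARGFX 3 gave 36 and mutant ARGFX 2 gave 59. LFNG, LMOD1, ACTA2, FN1, MYH9, MYH10, MAP1B and COL11A1 were among the 19. TMEM158 lost its place without control 3 or control 4, and SEMA3E without control 3.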

How the data were processed

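The authors trimmed the reads with Trimmomatic, used kallisto 0.46.1 with transcripts of ARS-UCD1.2 plus added ETCHbox sequences, and summed transcripts to genes. The deposited values are expected counts (21665 genes, 15 samples) and are not normalized. No lengths came with them, so a rank of genes by CPM, as for FN1, is not corrected for transcript length. Pseudoalignment can split reads among near-identical genes. No within-group pair of samples agreed within sampling noise.

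Expected counts were rounded and fitted with edgeR 4.0.16 in R 4.3.3 (filter on low counts, TMM, quasi-likelihood test, 1 fit to all samples, Benjamini-Hochberg over 14264 genes). Calls needed an adjusted p under 0.05, a fold over 1.5 and a mean CPM over 5, which left 10242 genes ("all genes"). The procedure was tested on simulated counts. Alternatives included DESeq2 1.42.0 and each sample left out. Overlap and spread without library b were added after seeing the data. Samples that shared a replicate number did not deviate together on average, which does not decide whether they were paired. The members and lists were chosen with earlier results of these data known. Named genes were the 30 members with a symbol and the largest smallest-of-3 folds, other members called between constructs, and at most 2 without a symbol. The RefSeq table (ARS-UCD2.0) matched 0 identifiers, so symbols came from 220 entries of the authors' supplementary list. No sequence was read.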

Additional observations from a re-analysis of the deposited data

Results flagged for a closer look

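In 10 of 98 groups of 4 samples (named members, the transfected genes, library totals and the members' median level), the highest or lowest sample lay far from the other 3, where chance alone gives about 4.9, or 1 in 20. The groups share the same libraries and are not independent, so the expected number does not show whether 10 is unusual. In 7 of the 10 the sample was WT ARGFX library b. It was low for MYH10 (240 CPM against 491 to 494 CPM in the other 3), MAP1B (61.4 against 202 to 223 CPM), FN1 (3308 against 6720 to 7268 CPM), MYH9 (840 against 1628 to 1731 CPM), JCAD (82.7 against 128 to 136 CPM) and MRC2 (200.2 against 353 to 367 CPM), and high for ACTA2 (2683 against 1836 to 1911 CPM). Control 2 was low for LMOD1 (5.57 against 9.44 to 10.1 CPM) and for ARNTL (12.7 against 15.3 to 15.7 CPM). Control 4 was low for TPCN1 (8.63 against 10.2 to 10.4 CPM).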

How the results depend on the processing

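The number of genes that met the rule was 47 as reported, 387 at the lower fold threshold tried and 2 at a fold of 2, and it ran from 36 to 119 with 1 sample left out. TMM and DESeq2 scaling gave 62 and 61 genes, each with 46 of the members, and group medians gave 62, with 39 of them. The members called higher with WT ARGFX than with mutant ARGFX numbered 1 as reported, 2 with DESeq2, 2 without a fold threshold and 0 to 1 with 1 sample left out, 0 of them without control 1 or 4, WT ARGFX 1, library b, LEUTX 2 or 3, or any mutant sample. Without a fold threshold 1 member was lower with LEUTX than with WT ARGFX. With 1 sample left out, the members higher with LEUTX numbered 12 to 15 against WT ARGFX and 16 to 21 against mutant ARGFX, and those called against control 42 to 47 with WT ARGFX, 21 to 42 with mutant ARGFX (23 without control 4, 21 without mutant 1 and 22 without mutant 3) and 45 to 46 with LEUTX. None of the differences called between constructs reversed. Without library b, 4 of 47 members changed sign between WT and mutant ARGFX, ME3 among them (0.09 to −0.04 on the log2 scale), and 5 between LEUTX and WT ARGFX, among them MYH10 (0.09 to −0.07) and MYO9B (0.03 to −0.18). None of these had passed the test.

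On average, samples that shared a replicate number did not deviate together. Over 16 such pairs the mean correlation was 0.0161, with a range from −0.615 to 0.642. Of these pairs 7 exceeded 0.1, and 3 of 13 numbered samples correlated best with their own number. With so wide a range, these values do not decide whether samples were paired. On the numbered samples, a replicate block gave 0 members higher with WT than mutant ARGFX, 14 higher with LEUTX than WT ARGFX and 22 than mutant ARGFX. The same samples without the block gave 0, 13 and 21. Whether depth or the spread between libraries limited these comparisons was not tested. Fits that leave 1 sample out of the mutant group rest on 2.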
